A study of Homo sapiens with 6 samples.

Results

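A set of 627 genomic regions had peaks of open chromatin in SEM cells with NSD2 knockdown and not with the control shRNA, and the reverse in exactly 1 of 2 other leukemia lines, RS4;11 (RS411 in the sample titles and from here on) or RCH. It was drawn from 126189 regions formed by merging the 12 peak lists of the study on the 22 autosomes wherever peaks shared at least 1 bp. A member had a peak in both SEM sh2 lists and in no SEM NT list, which is called gained here. It also had a peak in both NT lists and in no sh2 list of the other line, which is called lost. Members were thus chosen by the presence and absence of peaks in SEM and in the line of the loss, and those calls are given as a description. Of the members, 294 were lost in RS411 and not in RCH (the RS411-lost subset), and 333 were lost in RCH and not in RS411 (the RCH-lost subset). Another 30 regions gained in SEM were lost in both lines and are not members.

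The assay was ATAC-seq, whose transposase cuts and tags DNA that nucleosomes leave free, and it was run on 3 B-lineage acute lymphoblastic leukemia lines. KMT2A is fused to AFF1 in both RS411 and SEM. RCH is read as short for RCH-ACV, which the growth protocol names. Each line was studied with an shRNA against NSD2 (sh2) and with a non-targeted control shRNA (NT), 1 sample each, so that every knockdown rests on a single shRNA in a single line. A sample has 2 peak lists. They are treated as 2 libraries, and the labels do not say whether these came from separate cultures.

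NSD2 is a methyltransferase that places mono- and dimethyl marks on H3K36, largely across gene bodies and the stretches between genes. H3K36 methylation opposes H3K27 methylation by Polycomb, so that NSD2 dose is known to shift wide domains of chromatin between active and silent states, and an activating NSD2 mutation recurs in childhood leukemia. A peak in ATAC-seq marks a short accessible stretch, usually a promoter, an enhancer or a site bound by a factor such as CTCF. Regions of this study were not assigned to genes, and all coordinates are hg19.

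The lists differed in length between NT and sh2, in opposite directions in SEM and in the other lines. On the autosomes SEM had 62120 and 60148 peaks in the sh2 lists, against 52301 and 53475 in the NT lists. RS411 had 59502 and 61253 with sh2, against 81527 and 71463 with NT, and RCH had 43043 and 40506 with sh2, against 54740 and 55364 with NT. The condition in which members lack a peak is thus the one with the shorter lists in every line used. With 1 sample of each shRNA, no test between sh2 and NT was possible within a line, and none was run across the lines, since the rule sets the direction in SEM and in the line of the loss. The intervals given are exact binomial 95% intervals, or order-statistic intervals for medians, that cover counting error only, and sequencing depth is unknown.

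The rule fixes the direction of the members, so their number is a description. Of all 126189 regions, 4.59% were gained in SEM (7.56% of those with a SEM peak), 7.12% were lost in RS411 and 6.0% were lost in RCH. Of the 5796 regions gained in SEM, 324 (5.59%) were lost in RS411 and 363 (6.26%) in RCH, whatever the remaining line did. Among those with a peak in the line, 324 of 3509 were lost in RS411 (9.23%, against 9.72% of all regions with an RS411 peak). In RCH they were 363 of 2172 (16.7%, against 10.5% of all regions with an RCH peak). The shares of all regions count regions open in every list, which can be neither gained nor lost, and so run low. Without these, 8.53% were lost in RS411 and 7.19% in RCH, with or without a peak in the line. Shares of regions with a peak run low for the same reason and were not computed without them. No SEM-gained region is open in every list, so 9.72% and 10.5% are not like bases for 9.23% and 16.7%. Of the 105255 regions left, 8979 were lost in RS411 and 33783 had no RS411 peak. In RCH, 7570 were lost and 54377 had no peak. Regions lost in SEM that had a peak in the line were lost there more often, at 23.7% (RS411) and 22.4% (RCH).

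Absence of a peak depended on single lists. There were 1622 regions that missed the rule for the RS411-lost subset in exactly 1 of its 8 lists, and 1774 for the RCH-lost subset. The second SEM sh2 list alone kept 312 regions out of the RS411-lost subset by lacking a peak, and the first RCH NT list kept 406 out of the RCH-lost subset. An unwanted peak in the second SEM NT list kept out 159 and 279 regions. The RS411-lost subset would hold 550 regions without RS411 NT library 2, 445 and 510 without RS411 sh2 library 1 and 2, 454 without SEM NT library 2, and 591 and 608 without SEM sh2 library 1 and 2. For the RCH-lost subset the numbers were 571 and 611 without SEM NT library 1 and 2, 532 and 513 without SEM sh2 library 1 and 2, and 739 and 558 without RCH NT library 1 and 2. These changes follow from the rule, since a missing list can no longer keep a region out.

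With the lists of a line reduced to equal length, keeping the peaks of highest fold enrichment, 146 of the 294 RS411-lost members (49.7%) and 161 of the 333 RCH-lost members (48.3%) still met the rule. They made up 96.7% and 97.0% of the 151 and 166 regions that the shortened lists gave. With peaks above the pooled median fold of 6.37 alone, a threshold that takes unlike shares of the lists since their median folds run from 5.32 (RCH sh2 library 2) to 7.10 (RS411 sh2 library 1), the subsets held 150 and 350 regions, most of which were not members. Of the members, 5 of 294 and 7 of 333 thus met the rule with that list.

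The peaks of the members ranked mostly below the median of their lists, as did those of the sets most like them. The authors' value for each peak was read, from its range, as a fold enrichment over the background of its own library, and it is not comparable between lists. In the RS411-lost subset the median fold was 5.28 and 5.26 in the SEM sh2 lists and 5.46 and 5.16 in the RS411 NT lists. In the RCH-lost subset it was 5.74 and 5.59 in the SEM sh2 lists and 5.21 and 5.26 in the RCH NT lists. Ranked within their own list, these peaks stood at a median percentile of 33.1 and 31.6 (SEM sh2) and 36.6 and 28.7 (RS411 NT) in the RS411-lost subset. They stood at 40.4 and 36.4 (SEM sh2) and 35.9 and 36.3 (RCH NT) in the RCH-lost subset. All SEM-gained regions stood at 33.9 and 32.9 in the SEM sh2 lists. Lost regions without a gain in SEM stood at 35.1 and 28.3 (RS411 NT) and at 36.6 and 37.0 (RCH NT). Low ranks were thus not particular to the members. All 4 peaks ranked above the median of their lists at 2 of 294 RS411-lost members and at 9 of 333 RCH-lost members.

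**Figure D1:**
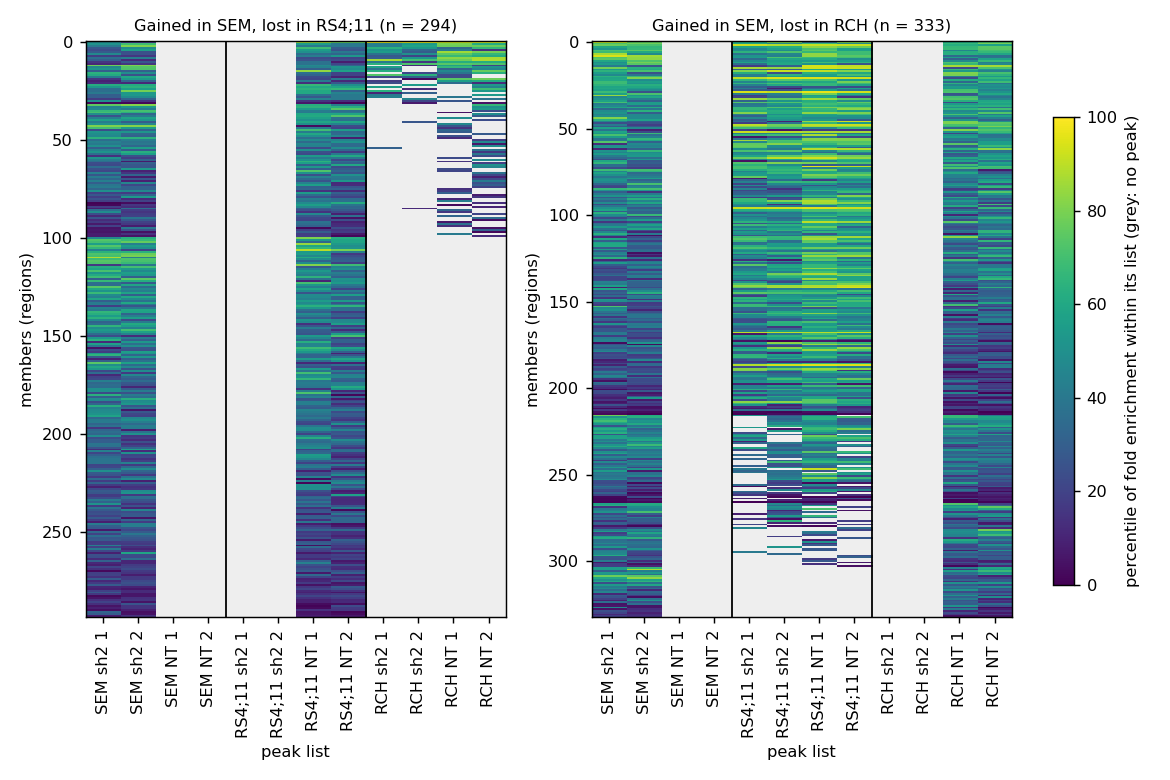
Each row is a member and each column a peak list (sh2 lists left of NT lists within a line), with the colour giving the percentile of the peak's fold enrichment within its own list and grey where no peak was called. Members are sorted by the number of lists of the remaining line with a peak. Most of the 294 RS411-lost members are grey in all RCH lists, while most of the 333 RCH-lost members are coloured in all RS411 lists.

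Most members held at most 1 peak of each list, with more than 1 at 4 of 294 RS411-lost and 22 of 333 RCH-lost members. Merged regions had a median width of 353 bp in the RS411-lost subset (interval 340 to 373, range 227 to 875) and of 401 bp in the RCH-lost subset (374 to 427, range 232 to 1425). All SEM-gained regions had a median of 346 bp and all regions one of 360 bp, so that RCH-lost members were wider than both and RS411-lost members lay between them. The width of a merged region grows with the number of lists that contribute. Single SEM sh2 peaks had median widths of 251 and 252 bp in the RS411-lost subset and of 266.5 and 255 bp in the RCH-lost subset, against 260 and 257 bp at all regions gained in SEM.

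The SEM peak and the lost peak overlapped in nearly all cases. Each SEM sh2 list had a peak that shared bases with one of each NT list of the lost line at 289 of 294 RS411-lost members (98.3%). The same held at 328 of 333 RCH-lost members (98.5%). The centres of the SEM peaks and of the lost peaks lay a median of 22.5 bp apart in the RS411-lost subset (highest 403) and 23.25 bp apart in the RCH-lost subset (highest 297). Hence the opposite calls mostly fell on overlapping peaks and rarely on separate neighbouring peaks joined by merging. No SEM sh2 peak or NT peak of RS411 or RCH was narrower than 200 bp. The merged regions had median widths of 353 and 401 bp, so many of these overlaps were bound to occur. Other sets were not measured in this way.

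Peaks of the closed condition, which the rule bars from the region itself, seldom lay within 1 kb of it. In the RS411-lost subset, 273 members (92.9%) had no SEM NT peak and 272 (92.5%) had no RS411 sh2 peak within 1 kb. In the RCH-lost subset, 88.9% had no SEM NT peak and 92.2% had no RCH sh2 peak within that distance. The median distance to the nearest SEM NT peak was 19.4 kb in the RS411-lost subset and 14.8 kb in the RCH-lost subset. To the nearest sh2 peak of the lost line it was 16.8 kb in RS411 and 22.8 kb in RCH. These distances were not measured for other sets of regions, so they are a description of the members alone.

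In the RS411-lost subset, the member of highest mean rank lay on chromosome 2 from 159070987 to 159071323. Its folds were 9.18 and 10.2 in the SEM sh2 lists, with no SEM NT peak, and 8.19 and 6.13 in the RS411 NT lists, with no RS411 sh2 peak. In RCH it had a peak in 1 NT list alone (7.54). The next lay on chromosome 10 from 32907389 to 32907795, with 6.17 and 7.71 in the SEM sh2 lists and 11.5 and 8.29 in the RS411 NT lists. Both regions were thus called in 4 lists used by the rule and at most 1 other.

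The third of this subset, on chromosome 3 from 18598042 to 18598369, had 8.81 and 8.21 in the SEM sh2 lists and 6.97 and 7.74 in the RS411 NT lists, and RCH had no peak. At chromosome 1, positions 74140686 to 74140971, there were folds of 7.51 and 7.50 in the SEM sh2 lists and 8.84 and 6.71 in the RS411 NT lists. RCH was open there in 1 list of each condition, with 5.60 in an sh2 list and 6.40 in an NT list. Of the 6 highest-ranked RS411-lost members, 4 had no peak in any RCH list.

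Those 4 included a further region of chromosome 1, from 241610601 to 241610969, which had 8.43 and 9.43 in the SEM sh2 lists and 5.16 and 7.76 in the RS411 NT lists. They also included a region of chromosome 9 from 75782545 to 75783067, with 6.92 and 5.99 in the SEM sh2 lists and 12.5 and 7.23 in the RS411 NT lists. Neither had a peak in the SEM NT or RS411 sh2 lists.

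In the RCH-lost subset, the member of highest mean rank lay on chromosome 4 from 57167671 to 57167993. Its folds were 12.4 and 9.18 in the SEM sh2 lists and 6.87 and 8.13 in the RCH NT lists, with no peak in the SEM NT or RCH sh2 lists. RS411 was open there in all lists, with 8.28 and 11.4 in the sh2 lists and 5.46 and 11.4 in the NT lists. No list of RS411 lacked a peak there.

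Next in rank came a region of chromosome 12 from 89855566 to 89856064, with 8.61 and 9.73 in the SEM sh2 lists and 7.63 and 9.19 in the RCH NT lists. RS411 had 8.05 and 6.89 there with sh2 and 8.79 and 6.64 with NT. Chromosome 13 held the next pair. The first of them, from 74472445 to 74473526 and 1082 bp wide, had 9.47 and 8.70 in the SEM sh2 lists and 7.10 and 6.62 in the RCH NT lists. RS411 had its highest folds of the 6 regions there, with 15.1 and 13.6 in the sh2 lists and 14.8 and 14.75 in the NT lists.

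The other, from 59892485 to 59893090, had 7.17 and 8.06 in the SEM sh2 lists, 7.58 and 8.51 in the RCH NT lists, and 8.06 and 8.52 (sh2) and 11.98 and 10.8 (NT) in RS411. On chromosome 7 from 144088522 to 144089436 the SEM sh2 lists had 6.59 and 8.18 and the RCH NT lists 7.65 and 8.50. On chromosome 5 from 147754315 to 147754652 the folds with SEM sh2 were 8.61 and 9.12, and those with RCH NT were 5.72 and 7.91. All 6 of the highest-ranked RCH-lost members had a peak in all 4 RS411 lists.

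**Figure D2:**
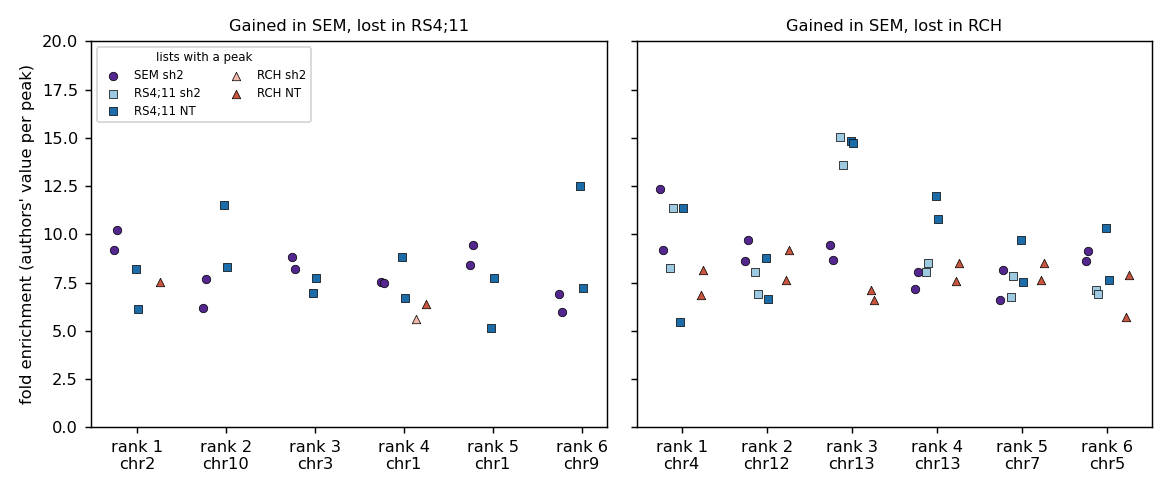
Fold enrichment (the authors' value per peak, linear axis from 0) of the 6 highest-ranked members of each subset, 1 point per list with a peak. RCH points are present at 2 of the 6 RS411-lost members on the left, and RS411 points of both conditions at all 6 RCH-lost members on the right. Folds are not normalized between lists.

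The other end of the ranking held members with folds near 3. The weakest RS411-lost member (chromosome 5, 64776139 to 64776739) reached 3.27 and 3.19 in the SEM sh2 lists and 3.64 and 3.19 in the RS411 NT lists. The weakest RCH-lost member, on chromosome 7 from 16684335 to 16684728, had 2.99 and 3.35 in the SEM sh2 lists and 2.80 and 3.09 in the RCH NT lists. It lay 0.112 kb from a region open in all 12 lists, and the weakest RS411-lost member 0.525 kb from one.

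In the middle of the ranking, members had folds of the same order as regions that missed the rule by 1 list. The RS411-lost member at the median, on chromosome 6 from 80296325 to 80296623, had 5.80 and 5.96 in the SEM sh2 lists and 4.55 and 5.31 in the RS411 NT lists. Just outside, the region on chromosome 2 from 125447308 to 125447660 had 4.44 in the first SEM sh2 list, no peak in the second, and 7.47 and 4.81 in the RS411 NT lists. Among RCH-lost members the median one lay on chromosome 6 from 123343993 to 123344468, with 6.93 and 5.35 in the SEM sh2 lists and 5.03 and 4.92 in the RCH NT lists. Its counterpart just outside, on chromosome 3 from 112964595 to 112964937, had 4.66 and 6.01 in the SEM sh2 lists and 5.05 and 6.05 in the RCH NT lists, and missed the rule through a peak of fold 4.60 in the first SEM NT list.

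In the remaining line the rule barred loss and asked for nothing else. RCH had no peak at 194 of 294 RS411-lost members (66.0%, interval 60.3 to 71.4), a peak in all 4 lists at 12 (4.08%, 2.13 to 7.02) and a peak in 1 to 3 lists at 88. RS411 had a peak in all 4 lists at 216 of 333 RCH-lost members (64.9%, 59.5 to 69.99), none at 29 (8.71%, 5.91 to 12.3) and a peak in 1 to 3 lists at 88. Over all 126189 regions, RCH had no peak at 43.1% and a peak in all 4 lists at 21.6%, and RS411 had no peak at 26.8% and a peak in all 4 lists at 35.7%. These include regions open in all 12 lists, which no member can be. Without them, RCH had no peak at 51.7% and a peak in all 4 lists at 5.99%. RS411 then had no peak at 32.1% and a peak in all 4 lists at 22.9%.

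The rule had left out regions lost in the remaining line too, which bears on these shares. When such regions were kept, RCH had no peak at 194 of 324 regions gained in SEM and lost in RS411 (59.9%) and a peak in all 4 lists at 3.70%. RS411 had a peak in all 4 lists at 216 of 363 regions gained in SEM and lost in RCH (59.5%). Over all 126189 regions, RS411 lists also held more peaks than RCH lists, as given above.

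Other SEM-gained regions gave different shares. RS411 had peaks in all 4 lists at 1783 of the 5796 regions gained in SEM (30.8%) and at 3062 of the 7207 regions lost in RCH without a gain in SEM (42.5%). It had them at 438 of 606 regions (72.3%, interval 68.5 to 75.8) that were gained in SEM and kept in RCH, meaning open in both RCH NT lists and at least 1 RCH sh2 list. Loss in RCH hence came with an RS411 share between that of SEM-gained regions at large and that of regions kept in RCH.

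For comparison with the RS411-lost members, RCH had peaks in all 4 lists at 349 of the 5796 SEM-gained regions (6.02%, interval 5.42 to 6.66) and no peak at 3624 (62.5%). At the 8655 regions lost in RS411 without a gain in SEM, it had peaks in all 4 lists at 4.02% and none at 63.1%. Regions gained in SEM and kept in RS411 had peaks in all 4 RCH lists at 277 of 2187 (12.7%, 11.3 to 14.1) and none at 35.6%. The RCH shares at RS411-lost members were thus near those of all SEM-gained regions and of RS411-lost regions without a gain in SEM. The differences between these sets were not tested, since regions of the same lists are not replicates.

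**Figure D3:**
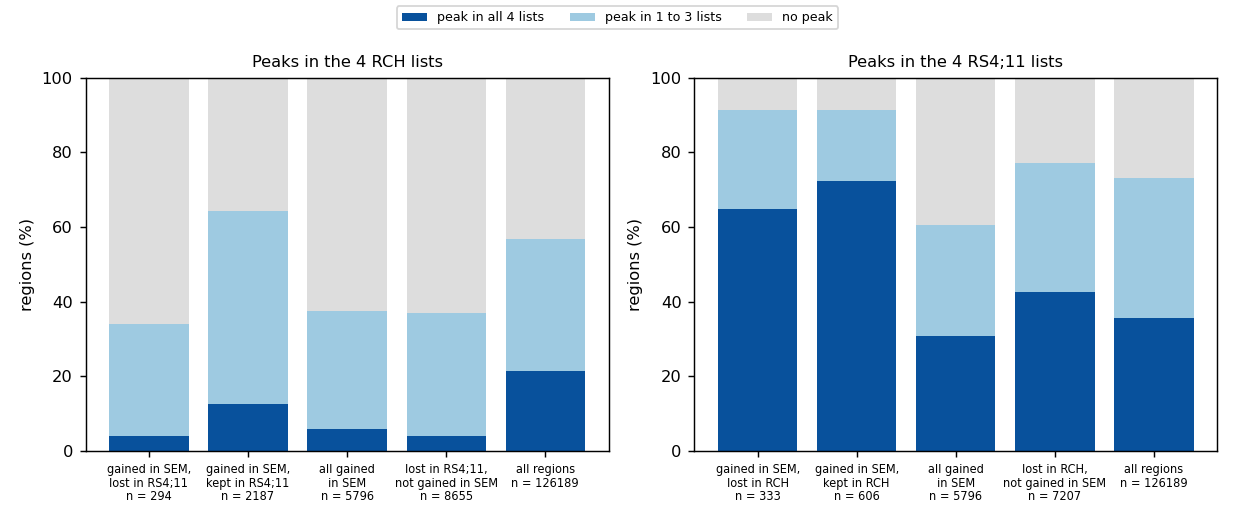
Stacked bars give the percent of regions with a peak in all 4, in 1 to 3 or in none of the lists of the remaining line, RCH on the left and RS411 on the right, for members (first bar) and for the sets named under the bars. RCH is without a peak at 66.0% of the RS411-lost members, and RS411 is open in all 4 lists at 64.9% of the RCH-lost members.

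The conditions of the remaining line were compared by the lists with a peak. At the 294 RS411-lost members, 25 and 25 had a peak in the RCH sh2 lists, against 50 and 66 in the RCH NT lists. RCH had a peak in more sh2 than NT lists at 6 of them (2.04%, against 8.74% of all regions) and in more NT than sh2 lists at 73 (24.8%, against 23.8%). At RS411-lost regions without a gain in SEM the shares were 2.75% and 28.5%, and at all SEM-gained regions 5.21% and 22.7%. Without regions open in all 12 lists, those of all regions were 10.5% and 28.5%. At the 333 RCH-lost members, 245 and 272 had a peak in the RS411 sh2 lists, against 285 and 267 in the RS411 NT lists. RS411 had a peak in more sh2 than NT lists at 19 (5.71%, against 7.28% of all regions) and in more NT than sh2 lists at 56 (16.8%, against 26.6%). Among members, the RS411 conditions overlapped in the number with a peak, and the RCH conditions did not. The rule had left out regions lost in the remaining line, which lowers the NT counts of members but not those of the other sets. With those regions kept, RS411 had a peak at 245 and 272 regions with sh2 and at 315 and 297 with NT, without overlap. More NT than sh2 lists had a peak at 31.8% (RCH) and 23.7% (RS411) of the regions then. The conditions of both lines also stood apart over all regions, where the NT lists are longer.

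The calls in the remaining line were not used to choose these regions. RCH was gained at 1 of the 324 regions gained in SEM and lost in RS411 (0.309%, against 1.10% of all regions and 1.94% of those with an RCH peak) and lost at 30 (9.26%, against 6.0%). Of the 130 such regions with any RCH peak, 30 (23.1%, interval 16.1 to 31.3) were lost in RCH, against 10.5% of all regions with an RCH peak. The share was 16.7% among all SEM-gained regions with an RCH peak, and 955 of 3196 (29.9%) among RS411-lost regions without a gain in SEM that had one. RS411 was gained at 2 of the 363 regions gained in SEM and lost in RCH (0.551%, against 0.643% of all regions and 0.879% of those with an RS411 peak) and lost at 30 (8.26%, against 7.12%). Of the 334 such regions with an RS411 peak, 8.98% were lost there, against 9.72% of all regions with an RS411 peak. The share was 17.2% among RCH-lost regions without a gain in SEM that had an RS411 peak. The shares of all regions given here count regions open in every list, which can be neither gained nor lost, and so run low. Without these, 7.19% of regions were lost in RCH and 8.53% in RS411, with or without a peak in the line. The shares of regions with a peak (10.5% and 9.72%) run low for the same reason. No region of the sets compared with them is open in every list.

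At RCH-lost members the rule asked for no RS411 peak. Where RS411 had one, the median fold was 6.71 and 6.94 in the RS411 sh2 lists, at percentiles 45.2 and 49.1, and 7.74 and 7.49 in the RS411 NT lists, at percentiles 59.2 and 55.98. At RCH-lost regions without a gain in SEM, RS411 peaks had percentiles of 48.0 and 47.0 with sh2 and of 58.9 and 55.5 with NT, close to those of the members. Since the NT lists are longer, a lower percentile with sh2 shows no change.

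The distance to stable open chromatin differed between sets of regions gained in SEM. The median distance to the nearest of the 20934 regions open in all 12 lists was 55.96 kb for RS411-lost members (interval 47.6 to 71.3) and 51.3 kb for RCH-lost members (42.5 to 62.1). It was 34.7 kb (32.8 to 36.9) for the 5139 regions gained in SEM and lost in neither line. Regions gained in SEM and kept open had medians between, at 44.03 kb (39.0 to 46.96) where kept in RS411 and 42.0 kb (33.8 to 49.5) where kept in RCH. Both intervals overlap that of the RCH-lost members. The interval of those kept in RCH also overlaps those of the RS411-lost members and of regions lost in neither line. The median of all regions not open in all lists was 44.9 kb, inside the interval of the RCH-lost members. Against regions lost in neither line, RS411-lost members were the farther set on 14 of 15 chromosomes with at least 5 of them, and RCH-lost members on 12 of 16. None of these differences was tested, and the intervals of the subsets overlap each other.

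Lost regions without a gain in SEM lay farther still, at a median of 91.6 kb in RS411 (interval 88.4 to 94.5) and 61.8 kb in RCH (59.2 to 65.1). The interval of the RCH-lost members overlaps that of the RCH set, while that of the RS411-lost members lies below that of the RS411 set. More than 100 kb away lay 35.4% of RS411-lost members and 33.6% of RCH-lost members, against 24.0% of regions gained in SEM and lost in neither line. Within 10 kb lay 9.86% and 13.8% of the members and 21.3% of those regions. With a stricter peak list or with 50% coverage, the medians came to 109.8 kb or more for the RS411-lost subset and 96.2 kb or more for the RCH-lost subset, where just 10038 and 10924 regions were open in all lists.

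**Figure D4:**
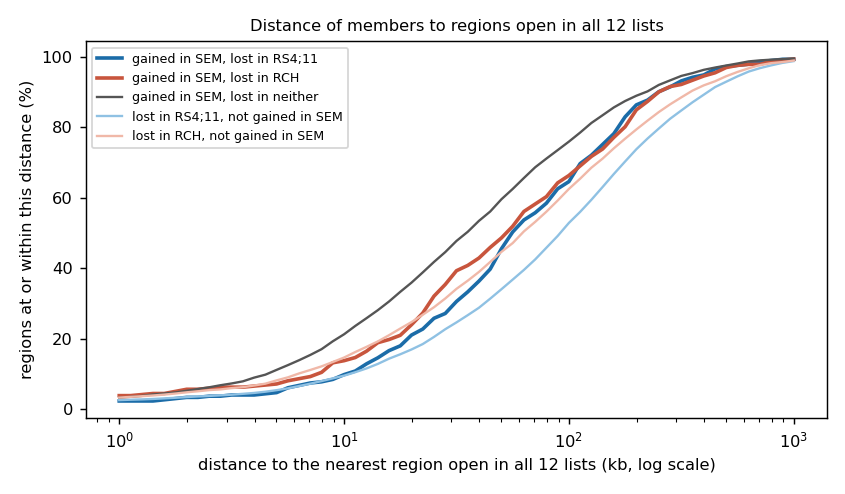
Cumulative percent of regions (vertical axis) at or within a distance in kb (log axis) of the nearest region open in all 12 lists. From 2.24 kb on, both curves of members run right of regions gained in SEM and lost in neither line. At 1 kb the RCH-lost curve lies above that set (3.90% against 3.31%). Medians were 55.96 kb (RS411-lost) and 51.3 kb (RCH-lost) against 34.7 kb, and RS411 regions lost without a gain in SEM had the farthest median.

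By chromosome, members were most frequent on chromosome 13, with 33 among its 4194 regions (7.87 per 1000), then on chromosome 7 with 52 (7.49 per 1000) and chromosome 18 with 26 (7.27 per 1000). All autosomes together held 627 among 126189. Per 1000 regions, chromosome 13 had 47.0 gained in SEM, 91.6 lost in RS411 and 70.8 lost in RCH. The rates were 44.5, 81.6 and 70.2 on chromosome 7, and 59.0, 90.3 and 74.4 on chromosome 18. Over all regions these classes made up 4.59%, 7.12% and 6.0%. Whether members exceed what the classes give was not tested. Chromosome 2 held the largest number, 70. Chromosome 13 had 11 RS411-lost and 22 RCH-lost members, and chromosome 10 had 5 and 17. Chromosome 12 leaned the other way, with 14 RS411-lost and 9 RCH-lost members.

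Chromosomes 19 and 22, both rich in genes, held no member among 3120 and 1789 regions. Of the classes that make up the rule they also held few, with 42 SEM-gained, 32 RS411-lost and 40 RCH-lost regions on chromosome 19 and 27, 44 and 34 on chromosome 22. Chromosome 17 held 6 members among 3781 regions (1.59 per 1000) and chromosome 16 held 6 among 3432 (1.75 per 1000). Rates were also low on chromosomes 20 (2.12 per 1000), 21 (2.46 per 1000), 14 (2.85 per 1000) and 15 (2.95 per 1000). Chromosome 4, which is poor in genes, held 58 (6.36 per 1000). It also had the highest rate of RS411 loss among the autosomes, with 932 of its 9119 regions lost. Gene content was not measured here, and its relation to the rate of members was not tested.

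**Figure D5:**
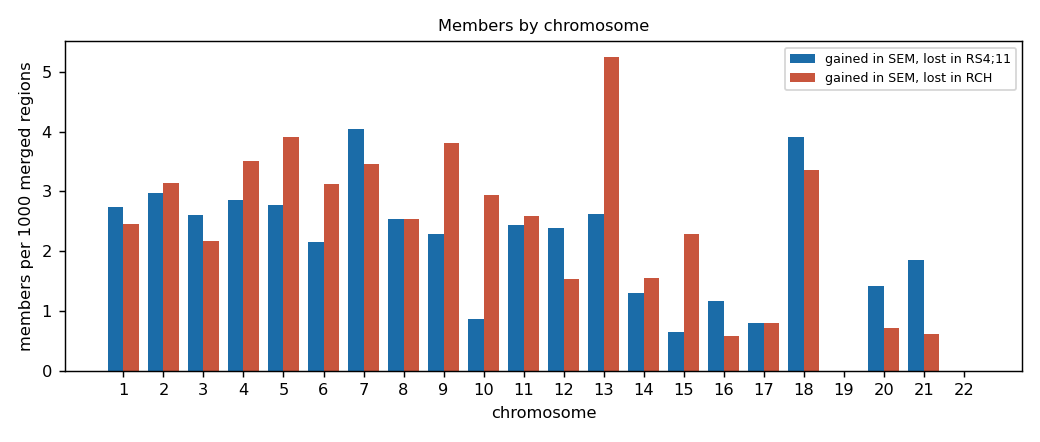
Members per 1000 merged regions (vertical axis from 0) on each autosome, RS411-lost members left of RCH-lost members. Both subsets are absent from chromosomes 19 and 22 and low on 16, 17 and 20, and the RCH-lost bar of chromosome 13 is the highest.

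Members fell in 318 of the 567 windows of 5 Mb that held any region, 155 of these with a single member, and no window held more than 6. The 4 windows with 6 members lay at 105 to 110 Mb and 140 to 145 Mb of chromosome 4 and at 60 to 65 Mb and 65 to 70 Mb of chromosome 13. The window at 60 to 65 Mb of chromosome 13 had 1 RS411-lost and 5 RCH-lost members among 204 regions, and that at 65 to 70 Mb had 3 of each among 207.

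Neighbouring members belonged to the same subset or to different ones. Of 27 pairs of adjacent members within 100 kb, 16 were mixed, 7 were both RS411-lost and 4 both RCH-lost. Within 1000 kb, 100 of 189 such pairs were mixed. Subsets of such similar size (294 and 333) give many mixed pairs by size alone, so these counts are a description. The closest mixed pair lay on chromosome 5, 943 bp apart. Its first region, from 60571608 to 60572114, was RS411-lost, with 4.39 and 5.05 in the SEM sh2 lists and 5.48 and 3.88 in the RS411 NT lists. RCH kept it open in all lists, with 4.93 and 3.86 with sh2 and 7.11 and 7.14 with NT.

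Its partner, from 60573058 to 60573457, was RCH-lost, with 5.69 and 5.56 in the SEM sh2 lists and 3.77 and 3.73 in the RCH NT lists, and RS411 kept it open with 6.32 and 7.69 (sh2) and 5.31 and 5.91 (NT). The closest pair of all, both RS411-lost, lay on chromosome 6 from 112764382 to 112764695 and from 112764862 to 112765313, with 166 bp between them. Another such pair lay on the same chromosome from 121973323 to 121973672 and from 121974235 to 121974732, with 562 bp between them.

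The widest members carried weak peaks in the lists of the rule. The widest RS411-lost member, 875 bp on chromosome 9 from 75093053 to 75093927, had 4.10 and 4.78 in the SEM sh2 lists and 3.94 and 4.69 in the RS411 NT lists. The widest RCH-lost member, 1425 bp on chromosome 6 from 156475165 to 156476589, had 4.10 and 5.06 in the SEM sh2 lists and 4.49 and 4.05 in the RCH NT lists. RS411 had 6.89 and 8.23 there with sh2 and 7.62 and 7.47 with NT.

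Lost regions of SEM, counted here among the neighbours, were 1.59% of all regions and 2.63% of those with a SEM peak. Within 100 kb of RS411-lost members, counted once for each member and with the member itself left out, there were 9 gained and 294 lost regions of RS411, 3 gained and 229 lost regions of RCH, and 235 gained and 35 lost regions of SEM. Within 100 kb of RCH-lost members the counts were 6 and 269 for RS411, 12 and 254 for RCH, and 245 and 28 for SEM. Gained regions thus made up 87.0% and 89.7% of the changed SEM neighbours, against 86.9% around SEM-gained regions lost in neither line, and 73.6% around all regions.

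In the other lines, few of the changed neighbours were gained. They made up 2.97% of changed RS411 neighbours around RS411-lost members and 2.18% around RCH-lost members, against 9.20% around SEM-gained regions lost in neither line and 12.3% around all regions. For RCH neighbours the shares were 1.29% and 4.51%, against 10.6% and 19.8%. Around regions lost without a gain in SEM, gained regions made up 2.93% (lost in RS411) and 6.997% (lost in RCH) of changed RS411 neighbours, and 5.91% and 9.92% of changed RCH neighbours. The RS411 share around RS411-lost members was thus near that around other regions lost in RS411. Neighbours are shared between members close to each other, and these shares were not tested.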

How the data were processed

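Per the submitters' processing notes, reads were aligned with Bowtie2 and peaks called with MACS2 on hg19. For versions, settings, duplicate removal and transposase offset, the sources used here give nothing. The 12 deposited lists have no headers. Each peak carries 1 value deposited by the authors, whose range is that of a fold enrichment (a ratio within its own library). It was used to rank or filter peaks within a list, and in 1 alternative to filter all lists at their pooled median, which compares it between lists. Depth is unknown.

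Lists held 40506 to 81527 peaks on chromosomes 1 to 22, and were merged with Python 3.11.15, numpy 2.4.6 and pandas 2.3.3. Bedtools 2.31.1 gave the same number of regions. Intervals (scipy 1.17.1) are exact binomial, and for medians exact order-statistic intervals. The classification was tested on simulated lists. Figures used matplotlib 3.10.9.

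The members and all comparisons were chosen with earlier results of these data known. Named are the 6 members of each subset with the highest mean percentile of fold over the 4 lists in which the rule asks for a peak, those at the median, the weakest and the widest member, the closest pairs, and the region 1 list short of the rule at the median. The weakest members, the sets kept in a line, the 5 Mb windows and the neighbours were chosen after the data were seen. Alternatives were lists of equal length, peaks above the pooled median fold, 50% coverage, 1 kb without a peak of the closed condition, joining of touching peaks or of peaks up to 500 bp apart, chromosome X and each library left out. Genes, motifs and sequences were not analysed here, since no hg19 genome or annotation was used.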

Additional observations from a re-analysis of the deposited data

How the results depend on the processing

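Lists of equal length gave 151 RS411-lost regions (51.4% of the 294 reported), 166 RCH-lost regions (49.8% of the 333 reported) and a median distance of 62.3 kb for the RCH-lost ones, and left the other results within their intervals. Peaks above the pooled median fold gave 150 RS411-lost regions (51.0% of the number reported) with RCH open in all lists at 1.33% and a median distance of 164 kb, and RCH-lost regions with RS411 open in all lists at 76.9% and a median distance of 104.3 kb. Coverage of 50% gave median distances of 109.8 and 96.2 kb. In both settings fewer regions were open in all lists by construction. With each library left out in turn the number of RS411-lost regions was 86.7% to 206.8% of the 294 reported, and that of RCH-lost regions 91.9% to 221.9% of the 333 reported. RCH was then open in all its lists at 3.09% to 5.84%, RS411 at 56.8% to 75.2%, and the median distances were 47.9 to 67.3 kb (RS411-lost) and 42.5 to 55.1 kb (RCH-lost). The RS411 share left its interval (59.5 to 69.99) with 7 of the 12 libraries. Where the library left out is of the remaining line, fewer lists have to be open there, which favours a higher share by construction. The remaining settings (no closed-condition peak within 1 kb, both ways of joining, chromosome X) moved no number by more than 1.5 times and no share or median out of its interval. Within a line, no paired analysis was possible because each shRNA has 1 sample and the labels number no replicates. Pairing sh2 with NT over the 3 lines was not run, since the rule sets opposite directions in 2 of them. With peak lists alone, a region without a peak may have had signal below the caller's limit.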

Other observations

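The reverse pattern, lost in SEM and gained in exactly 1 other line, was found at 15 regions for RS411 and 38 for RCH, and no region lost in SEM was gained in both. They lay closer to regions open in all 12 lists than the members did, at a median of 5.57 kb (interval 1.90 to 14.1) and 12.6 kb (8.98 to 27.9). On chromosomes 17, 19 and 22, which hold 3.0%, 2.47% and 1.42% of all regions, lay 4 of the 15 and 16 of the 38. Few regions were lost in SEM (2012) or gained in RS411 (812) and RCH (1390). Of those lost in SEM, 0.746% were gained in RS411 and 1.89% in RCH, against 0.643% and 1.10% of all regions. Without regions open in every list, which cannot be gained, the latter shares were 0.771% and 1.32%.

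The 30 regions gained in SEM and lost in both other lines lay at a median of 93.3 kb from a region open in all 12 lists (interval 44.7 to 139). The one of highest rank (chromosome 7, 34316652 to 34316990) had 10.2 and 7.34 in the SEM sh2 lists, 8.19 and 6.97 in the RS411 NT lists and 6.38 and 8.01 in the RCH NT lists. Chromosome X held a further 19 RS411-lost and 10 RCH-lost regions among its 4698.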
